A study of Mus musculus with 5 samples.

Results

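Contact maps of the Shh locus were compared between 2 alleles, intraTAD2-2xBorCTCF and intraTAD2-1xBorCTCF, called 2xBorCTCF and 1xBorCTCF below. They are 2 of the 5 capture Hi-C samples of the series and were chosen by genotype, with earlier results of these data known. Each was 1 library from limb buds of homozygous mouse embryos of stage E10.5, and both genotypes were made by tetraploid aggregation, in which mutant stem cells are combined with a tetraploid host that contributes mainly to tissues outside the embryo proper. By name both alleles carry intraTAD2. The labels do not describe what was altered in either allele, the number of stem cell clones or the number of pooled embryos. A difference between the alleles cannot be told apart from a difference between 2 libraries, 2 clones or 2 pools. The other maps are given beside them as levels: homozygous intraTAD2, intraTAD3 and intraTAD2-i4CTCF (i4CTCF below), all obtained by mating at the same stage, and a wild-type map that belongs to no sample and is given as the authors' value. Only contacts were measured, so the tissue label could not be checked against marker genes. Of 155961 pairs of 5 kb bins in the captured region, which spans 2790 kb of chromosome 5 from 27,480,001 to 30,270,000 (mm10), 150982 pairs at 10 kb or more between 551 usable bins were compared.

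Capture Hi-C counts how often DNA fragments that lie far apart along a chromosome are ligated to each other in fixed nuclei, for a chosen region. Mammalian chromosomes are folded into topologically associating domains (TADs), whose borders often hold binding sites of CTCF, a zinc finger protein that halts the loop-extruding cohesin ring in an orientation-dependent way. Shh encodes a secreted signal that patterns the limb, and its limb enhancer lies inside Lmbr1 at the far end of the Shh TAD. En2 and Mnx1 are homeobox genes on either side of that TAD. Developmental genes that are silenced by Polycomb proteins are known to contact each other over long distances.

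The files give balanced values, from which whole contacts were recovered: 1121340 in 2xBorCTCF and 1975131 in 1xBorCTCF, or 1.76 times as many. The deeper map listed 83.1% of bin pairs and the shallower one 72.0%, and the other maps held 1256568 to 2942790 contacts. Each balanced value was set relative to the average pair at its distance in its own map, so that 1 is the average contact at that distance. Comparisons are given as the log2 ratio of 2xBorCTCF over 1xBorCTCF, where a negative value means less contact in 2xBorCTCF. A difference is called higher or lower where it reached 0.32 in size on the log2 scale and its 95% interval left out 0. The intervals cover counting error only, because 1 library a genotype gives no spread between embryos and no test.

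A bin at 28,685,001, 0.2 Mb from Shh inside the TAD, set apart maps that share the name intraTAD2. Its contacts at 10 kb or more were 104 per 10000 contacts of the map in intraTAD2 and 87.9 in 1xBorCTCF. In 2xBorCTCF they were 53.8, next to 53.9 in wild type, 51.5 in intraTAD3 and 59.0 in i4CTCF. At these distances the bin stood high in intraTAD2 and 1xBorCTCF and near the remaining maps in 2xBorCTCF, with a log2 ratio of -0.71 (-0.75 to -0.67) between the compared maps. Contacts within the bin grouped the maps differently, at 12.98 in intraTAD2, 12.8 in 1xBorCTCF, 10.1 in i4CTCF, 7.07 in 2xBorCTCF, 4.85 in wild type and 4.47 in intraTAD3. Whether the alleles of these samples match their labels was not tested. A second bin, at 29,315,001 in Lmbr1, held 2421 contacts within itself in 2xBorCTCF and 272 in 1xBorCTCF. Leaving out both bins changed the ratios of the listed pairs with Shh or Lmbr1, and of En2 with Mnx1, by at most 0.034 on the log2 scale.

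Shh, En2 and Mnx1 touched each other less in 2xBorCTCF than in 1xBorCTCF, in all 3 pairs. Shh lies at 28,456,840 to 28,467,101 of chromosome 5. En2, which acts in midbrain and hindbrain development, lies at 28,165,696 to 28,172,190, which is 292.5 kb from Shh (middle to middle of the windows, each the gene body with 1 bin on either side). The distance-normalised contact of En2 with Shh was 1.44 in 2xBorCTCF, 2.21 in 1xBorCTCF, 1.37 in intraTAD2, 1.48 in intraTAD3, 2.24 in i4CTCF and 1.80 in the authors' wild-type map. The value of 2xBorCTCF thus lay with intraTAD2 and intraTAD3, and that of 1xBorCTCF with i4CTCF. The log2 ratio was -0.61 (-0.85 to -0.38), from 197 recovered contacts against 727, which at the depth of 2xBorCTCF would be 413.

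Mnx1, best known from motor neurons and the pancreas, lies at 29,473,823 to 29,478,470, 1012.5 kb from Shh on the other side of Lmbr1. Its contact with Shh was 3.02 in 2xBorCTCF, 4.52 in 1xBorCTCF, 4.25 in intraTAD2, 4.23 in intraTAD3, 5.27 in i4CTCF and 5.15 in wild type. The ratio was -0.58 (-0.88 to -0.28), from 125 contacts against 458. Here 2xBorCTCF was the lowest of the 6 maps, and its counting interval overlapped with none of the others.

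En2 and Mnx1 lie 1305 kb apart with the whole Shh TAD between them. Their contact was 5.52 in 2xBorCTCF, 8.97 in 1xBorCTCF, 8.07 in intraTAD2, 8.77 in intraTAD3, 12.2 in i4CTCF and 10.7 in wild type. The ratio was -0.70 (-0.94 to -0.46), from 178 contacts against 726, and contact was 1.62-fold higher in 1xBorCTCF. 2xBorCTCF was again the lowest map. It was also lower than intraTAD2 by itself, with a ratio of -0.55 (-0.79 to -0.30), while 1xBorCTCF and intraTAD2 differed by 0.15 (0.000084 to 0.30). No test of a difference between these ratios was possible, and both use the same intraTAD2 map. The intraTAD2 embryos came from mating and the others from tetraploid aggregation, so allele, method and library cannot be told apart in these ratios.

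**Figure D1:**
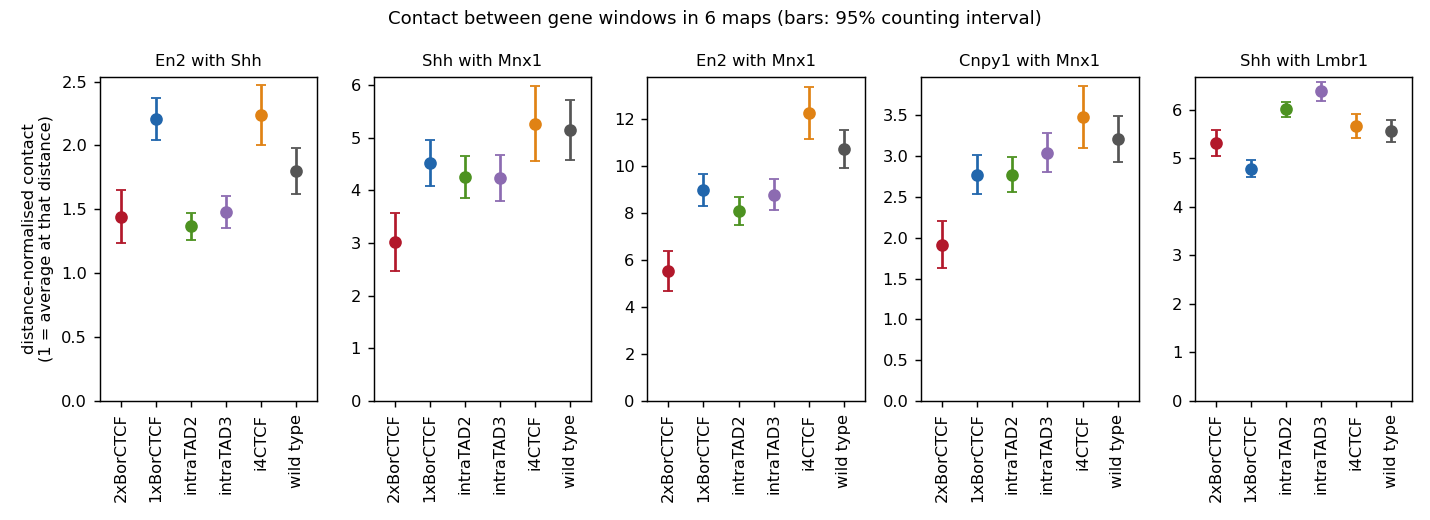
Distance-normalised contact (y axis, 1 is the average at that distance) of 5 gene pairs in the 6 maps (x axis), with 95% counting intervals as bars and 1 library a map. In the first 4 pairs the 2xBorCTCF point lies below 1xBorCTCF with no overlap of the intervals (5.52 against 8.97 for En2 with Mnx1), and for Shh with Lmbr1 it lies above it (5.31 against 4.79).

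Cnpy1, the gene next to En2 that encodes a modulator of FGF signalling, showed the same direction. Its contact with Mnx1 was 1.92 in 2xBorCTCF and 2.77 in 1xBorCTCF, with 2.77 to 3.48 in the other maps, a ratio of -0.53 (-0.78 to -0.28). With Shh it was 0.819 against 1.00, a ratio of -0.29 (-0.47 to -0.12) that did not reach the size of a call. On the En2 side the deficits were therefore not limited to the En2 window. In the ring of bins within 30 kb around each window, contact was also lower in 2xBorCTCF, with ratios of -0.28 (-0.43 to -0.13) for En2 with Shh, -0.25 (-0.42 to -0.082) for Shh with Mnx1 and -0.40 (-0.50 to -0.29) for En2 with Mnx1. The rings of En2 reach into the Cnpy1 window and are not separate from its values. On the Mnx1 side, the 30 kb stretches next to the one that holds Mnx1 were not lower with En2. Their ratios were 0.048 (-0.28 to 0.38) and 0.10 (-0.22 to 0.42). The window of each pair stood out from its ring less in 2xBorCTCF as well. Window over ring was 1.93 against 2.43 for En2 with Shh (log2 ratio -0.33, -0.61 to -0.052), 2.69 against 3.31 for En2 with Mnx1 (-0.30, -0.57 to -0.036) and 1.90 against 2.39 for Shh with Mnx1 (-0.33, -0.68 to 0.0091, an interval that includes 0).

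The calls were read against all pairs tested. Of the 77 pairs of listed genes whose windows share no bin, 6 were called lower (7.79%) and 3 higher (3.9%), and the trio and Cnpy1 with Mnx1 made up 4 of the 6. Window pairs of the same shape and separation were taken at every position of the region. For En2 with Shh 6.25% of 496 were called in either direction, for Shh with Mnx1 3.64% of 330 and for En2 with Mnx1 9.88% of 253. The ratio of En2 with Shh lay below the lowest 5 percent of its windows (-0.43), as did that of En2 with Mnx1 (-0.60). That of Shh with Mnx1 did not, at -0.58 against -0.65. None of the pairs was the lowest of its shape: windows went down to -1.33 for En2 with Shh, -1.17 for Shh with Mnx1 and -0.93 for En2 with Mnx1. These windows overlap one another, and the shares describe the 2 maps only.

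The 3 genes themselves held fewer contacts in the 2xBorCTCF library before balancing. At 10 kb or more the Shh window had 138 per 10000 contacts of the map against 165 in 1xBorCTCF (log2 ratio -0.26), the En2 window 130 against 146 (-0.16) and the Mnx1 window 110 against 120 (-0.12). These were the most negative ratios of the 13 listed genes, whose other members ranged from -0.11 for Cnpy1 to 0.036 for Insig1. For single 5 kb bins, a smaller unit than these gene windows, the 5th and 95th percentiles over all 551 bins were -0.21 and 0.15. Balancing scales every bin to 1 total, in which contacts below 10 kb also count. It therefore changes such differences at 10 kb or more but need not remove them. Without the bin factors the deficits were larger, at -1.02 for En2 with Shh, -0.87 for Shh with Mnx1 and -0.84 for En2 with Mnx1. The part that the lower contacts of the 3 gene windows before balancing have in the results was not tested.

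**Figure D2:**
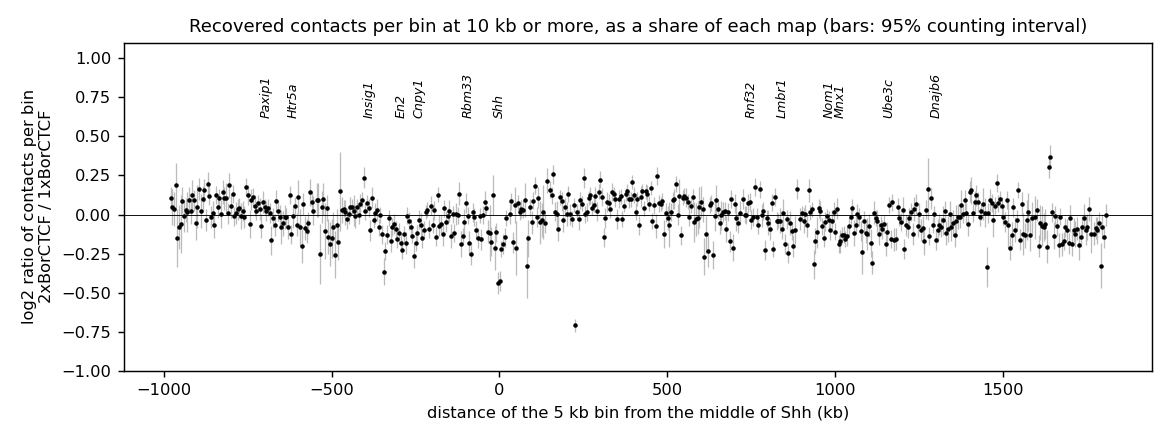
Log2 ratio of recovered contacts per 5 kb bin at 10 kb or more, each as a share of its map's contacts (y axis, 2xBorCTCF over 1xBorCTCF), by distance from the middle of Shh in kb (x axis); grey bars are 95% counting intervals. Most bins lie between -0.21 and 0.15; the point at -0.71 is the bin at 28,685,001, and the low points at 0 kb belong to Shh.

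The contact of Shh with its enhancer-bearing partner Lmbr1 moved little, and its direction depended on the balancing. Lmbr1 spans 29,229,802 to 29,378,421, and its window lies 840 kb from that of Shh. Their contact was 5.31 in 2xBorCTCF, 4.79 in 1xBorCTCF, 6.01 in intraTAD2, 6.38 in intraTAD3, 5.67 in i4CTCF and 5.56 in wild type. 1xBorCTCF was the lowest of the 6 maps. In intraTAD3 part of the Lmbr1 window held few contacts, 695 at 10 kb or more at 29,315,001 against 3250 in 2xBorCTCF, so its value describes mainly the rest of the gene. The log2 ratio was 0.15 (0.060 to 0.24), from 1885 contacts against 3793, which is 1.11-fold and not a call. Of 372 window pairs of the same shape and separation 5.38% were called. With recovered contacts scaled by distance but without bin factors it reversed to -0.11 (-0.19 to -0.032). Shh with Rnf32, a RING finger gene beside Lmbr1, had 3.44 against 3.04, a ratio of 0.18 (0.012 to 0.34), and also reversed, to -0.041, in that setting. The windows of Lmbr1 and Rnf32 share bins and are not separate observations. Seen from Lmbr1, none of 93 tiles of 30 kb was called in either direction (0% each). Lmbr1 is 148620 bases long and Shh 10262, so the Lmbr1 window averages more bins. Its 0% cannot be set directly against the shares of smaller windows.

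The other neighbours of Shh gave small ratios. Rbm33, the gene just across the nearer TAD border, had contacts with Shh of 0.537 and 0.519 in 2xBorCTCF and 1xBorCTCF, and Nom1, next to Mnx1, had 2.30 and 2.29. Nom1 lies 32.5 kb from Mnx1, yet its ratio with Shh was 0.0053 (-0.27 to 0.28) against -0.58 for Mnx1, and its ratio with En2 was 0.0051 (-0.31 to 0.32) against -0.70. Dnajb6, which encodes a co-chaperone, was the gene with a call in the other direction among pairs with Shh. Its contact was 1.04 against 0.791, a ratio of 0.40 (0.046 to 0.75) from 110 contacts against 213, and the call was lost with map-total scaling, without bin factors and with wider windows. Insig1, Htr5a, Paxip1 and Ube3c had ratios with Shh from -0.031 to 0.24, all with intervals that include 0. The remaining calls among listed genes were far apart and thin: Paxip1 with Rnf32 (0.37) and Htr5a with Rnf32 (0.38) were higher, and Htr5a with Nom1 (-0.59) and Insig1 with Ube3c (-0.43) were lower.

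Promoters were looked up for Shh and the 3 genes whose contact with it was called, and 2 of these 4 genes, Mnx1 and Dnajb6, matched the RefSeq promoter table (GRCm38.p6, 250 bases before to 50 after the gene start). They are shown because these genes had the called contacts with Shh, in opposite directions. Capitals mark a match of a short form of the CTCF motif: CC, any 3 bases, AG, any 2 bases and GGC, searched on both strands. The Mnx1 promoter is chr5:29478421-29478720 on the minus strand, and the Dnajb6 promoter, the only one of its 2 entries with a match, is chr5:29735648-29735947 on the plus strand.
Mnx1: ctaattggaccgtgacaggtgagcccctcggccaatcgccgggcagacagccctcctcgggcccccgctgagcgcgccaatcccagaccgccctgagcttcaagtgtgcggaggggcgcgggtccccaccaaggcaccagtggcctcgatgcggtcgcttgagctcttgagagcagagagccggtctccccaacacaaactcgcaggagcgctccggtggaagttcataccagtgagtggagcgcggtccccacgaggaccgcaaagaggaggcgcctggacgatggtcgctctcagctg
Dnajb6: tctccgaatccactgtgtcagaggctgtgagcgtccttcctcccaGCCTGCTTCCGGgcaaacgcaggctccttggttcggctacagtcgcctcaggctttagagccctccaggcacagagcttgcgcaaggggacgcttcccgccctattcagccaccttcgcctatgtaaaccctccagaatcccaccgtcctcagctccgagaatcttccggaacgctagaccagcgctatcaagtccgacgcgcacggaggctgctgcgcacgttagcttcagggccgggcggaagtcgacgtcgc
The motif occurred 0 times in the Mnx1 promoter and 1 time in that of Dnajb6, and 8.61% of 32851 mouse promoters of this length hold it. Both printed promoters hold 26 CpG dinucleotides, against a median of 7 over all promoters and a 95th percentile of 37. A match is a description of letters and not a bound site.

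Along the region, the contacts of Shh were lower in 2xBorCTCF at 2 places outside the TAD, and in balanced values mostly a little higher inside it. Of 93 tiles of 30 kb, 7 were called higher (7.53%) and 4 lower (4.3%). The lower tiles were 3 in a row from 28,110,001 to 28,200,000, which hold En2, and 1 at 29,460,001 to 29,490,000, which holds Mnx1. At the tile 28,140,001 to 28,170,000 contact was 1.12 in 2xBorCTCF, 1.65 in 1xBorCTCF, 1.06 in intraTAD2, 1.05 in intraTAD3, 1.5 in i4CTCF and 1.41 in wild type. At the Mnx1 tile it was 3.01 against 4.08, with 3.87 to 4.86 in the other maps. Of the 31 tiles inside the TAD, 25 had a ratio above 0, 4 were called higher and none lower, with a median of 0.14. The 29 tiles on the Mnx1 side had the same median, with 18 above 0, 2 called higher and 1 lower, and the 31 on the En2 side had a median of -0.073. Ratios above 0 were thus not limited to the TAD. The 4 higher tiles were at 28,800,001, 28,860,001, 29,010,001 and 29,100,001 and hold none of the listed genes. The tile at 29,010,001 had 3.02 in 2xBorCTCF and 2.26 in 1xBorCTCF, with 2.72 to 3.28 in the other maps, a ratio of 0.42 (0.24 to 0.60). So in this tile 1xBorCTCF was the low map. Without bin factors no tile was called higher and 17 were called lower, so the calls inside the TAD were lost in that setting.

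**Figure D3:**
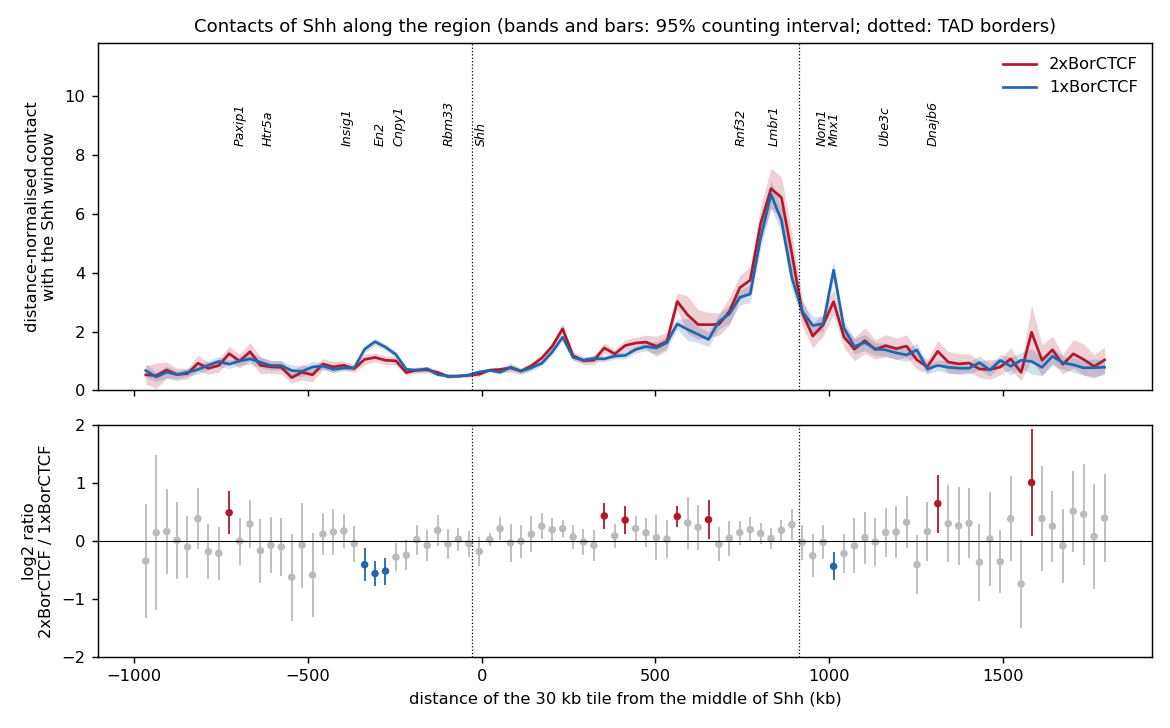
Upper panel: distance-normalised contact of the Shh window with 30 kb tiles (y axis) in 2xBorCTCF and 1xBorCTCF, by distance from Shh in kb (x axis), with 95% counting intervals as bands. Lower panel: log2 ratio of the maps with 95% counting intervals, called tiles in red (7 higher) and blue (4 lower), where the blue tiles lie at En2 and Mnx1.

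Shares of contacts were also taken, without a distance correction. Among contacts that Shh made over 20 kb or further, 60.8% (60.0 to 61.6%, exact binomial interval) lay in the TAD in 2xBorCTCF and 56.2% (55.6 to 56.7%) in 1xBorCTCF. The En2 side received 27.2% (26.5 to 28.0%) against 30.3% (29.8 to 30.9%), and the Mnx1 side 12% (11.4 to 12.5%) against 13.5% (13.1 to 13.9%). In the other maps the share in the TAD was 61.9% in intraTAD2, 62.5% in intraTAD3, 56.9% in i4CTCF and 57.0% in wild type. The compared maps thus fell on either side of a gap between 57.0 and 60.8%. Seen from Mnx1, 15.6% (14.8 to 16.3%) of contacts went to the En2 side in 2xBorCTCF and 21.9% (21.3 to 22.5%) in 1xBorCTCF, with 19.05 to 24.2% in the other maps. Seen from En2, 10.0% against 12.6% went to the Mnx1 side, with 10.9 to 14.2% in the others. Balanced values gave 58.9% against 54.7% for Shh in the TAD. A higher share in the TAD was not a higher number of contacts: those of Shh in the TAD came to 77.5 per 10000 contacts of the map in 2xBorCTCF and 85.4 in 1xBorCTCF.

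Profiles were also taken from En2 and Mnx1. Where these genes and Shh meet, the tiles hold largely the same contacts as the gene pairs above and are not separate observations. For Mnx1, 6 of 87 tiles were lower (6.9%) and 5 higher (5.75%). The lower ones included a run of 4 from 28,110,001 to 28,230,000 over En2 and the start of Cnpy1, with ratios from -0.70 to -0.58, and the Shh tile, at -0.72 (-1.09 to -0.35). The higher ones started at 27,750,001, 27,930,001, 28,410,001, 28,800,001 and 28,830,001. That at 28,410,001 lies next to the Shh tile and had a ratio of 0.56 (0.026 to 1.09). For En2, 4 of 91 tiles were lower and 4 higher (4.4% each). The lower tiles were Mnx1, at -0.62 (-0.82 to -0.42), the Shh tile, at -0.46 (-0.76 to -0.17), and 2 further tiles within 100 kb of it.

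Over the whole region the 2 maps were close. Of 4210 tile pairs, 91 were called higher (2.16%) and 135 lower (3.21%), with a median ratio of 0.0028. By size alone 23.5% of tile pairs passed 0.32, most of them within counting error. With map-total scaling in place of the distance correction the split moved to 49 higher and 249 lower. Between 5 kb bins with 5 or more contacts in both maps, 2447 of 36898 pairs were at least 2-fold higher (6.63%) and 594 at least 2-fold lower (1.61%). After 1xBorCTCF was thinned to the depth of 2xBorCTCF these counts became 998 and 893, so no direction was read from the first split.

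**Figure D4:**
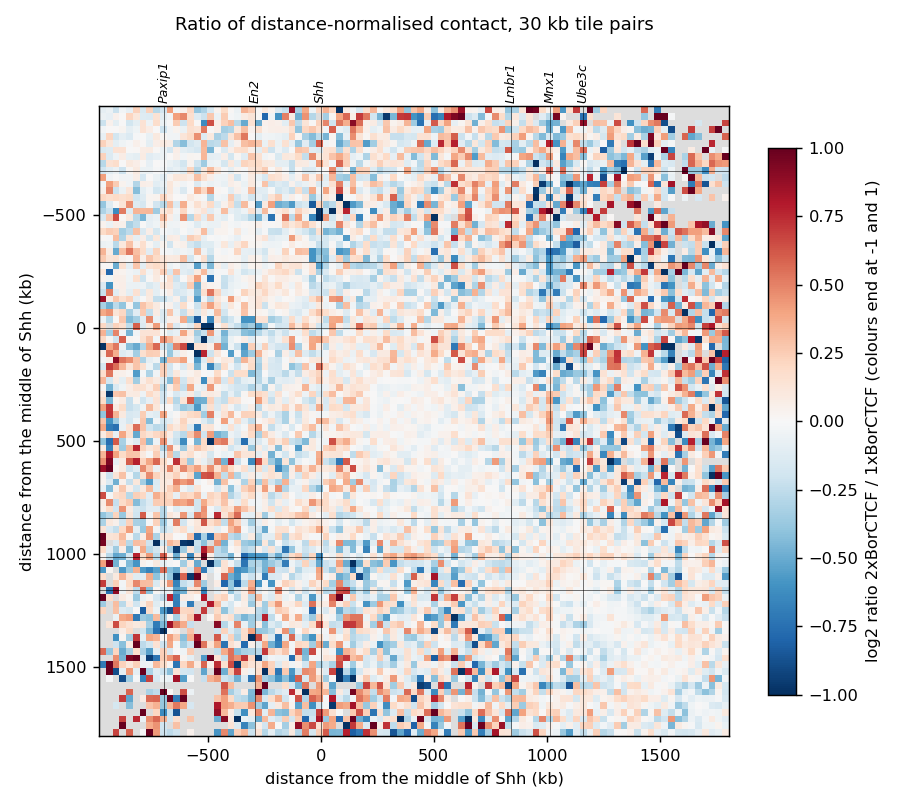
Log2 ratio of distance-normalised contact for 30 kb tile pairs (colour, blue is lower and red higher in 2xBorCTCF), with both axes in kb from the middle of Shh and gene positions as thin lines; grey pairs had under 10 contacts in a map. Blue patches lie where En2 crosses Shh and where En2 crosses Mnx1 (gene pair ratios -0.61 and -0.70), and the noise grows with distance.

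Among the tile pairs within 1000 kb that held at least 50 contacts in each map, 100 of 2286 were called (4.37%). The 5 strongest in each direction were spread over the region. The largest gain, 0.81 (0.24 to 1.39), linked a tile at the boundary of Rnf32 and Lmbr1 with one at 29,970,001, at 1.01 in 2xBorCTCF, 0.576 in 1xBorCTCF and 0.526 to 0.706 in the others. The tile in Lmbr1 at 29,310,001, with the tile of Il6 (an interleukin) at 30,000,001, was also higher, at 0.67, as was a tile at 28,950,001 with Ube3c, a ubiquitin ligase, at 0.71. Both of the other gains joined stretches of the long noncoding gene 9530036O11Rik, beside Shh, to the TAD interior. They were 0.65 (0.14 to 1.16) for the tiles at 28,590,001 and 29,070,001 and 0.65 (0.23 to 1.06) for those at 28,500,001 and 28,950,001. In the second of these, 1.97 in 2xBorCTCF lay close to 1.67 to 1.93 in the other 4 maps, and 1xBorCTCF was low at 1.26. The 5 strongest losses had ratios from -0.78 to -0.69. They included a tile of Cnpy1 with one at 27,960,001 (-0.74) and a tile of Ube3c with one at 29,070,001 (-0.76). The strongest joined the tiles at 29,130,001 and 29,940,001 (0.483 against 0.830).

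In blocks, the TAD of Shh was slightly denser in 2xBorCTCF. Its borders were taken from wild-type insulation minima at 28,435,001, between Rbm33 and Shh, and 29,375,001, at the end of Lmbr1, which gives 940 kb. Mean contact inside it was 1.39 in 2xBorCTCF and 1.36 in 1xBorCTCF, a ratio of 0.033 (0.018 to 0.048), and both lay below 1.42 to 1.5 in the other maps. The TAD was also cut into 3 stretches of 315, 310 and 315 kb. The stretch next to Shh was higher within itself, at 0.081 (0.046 to 0.12), and with the middle stretch, at 0.070 (0.037 to 0.10). Contact of the En2-side flank with the Mnx1-side flank was lower, 1.04 against 1.07, a ratio of -0.044 (-0.074 to -0.014), with 1.08 to 1.11 in the other maps. Contacts inside the flanks did not differ beyond counting error (0.00047 and -0.0013). Contact of the TAD with the En2-side flank was higher by 0.032 and with the Mnx1-side flank -0.017 (-0.040 to 0.0063). The first of these reversed to -0.057 with map-total scaling. By distance, 32.8% of the signal of 2xBorCTCF lay at 10 to 50 kb against 30.9% in 1xBorCTCF, and 8.24% against 9.05% at 1000 to 2000 kb. The distance correction removes this difference.

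The insulation score is the log2 of mean contact across a bin border over the mean within the 100 kb on both sides, so that a lower score is a sharper border. At the border next to Shh it was -0.62 in 2xBorCTCF, -0.73 in 1xBorCTCF, -0.81 in intraTAD2, -0.78 in intraTAD3, -0.72 in i4CTCF and -0.84 in wild type. 2xBorCTCF had the weakest score there, but its difference from 1xBorCTCF of 0.11 had an interval (-0.017 to 0.24) that includes 0, and with 200 kb windows it was -0.017. Just beside it, from 28,410,001 to 28,430,001 at the end of Rbm33, 5 bin borders in a row were less insulated in 2xBorCTCF, by up to 0.19 (0.065 to 0.31). Neighbouring bin borders share most of their bin pairs, so the borders of such a run are not separate observations. The border at Lmbr1 went the other way, with -0.73 in 2xBorCTCF, -0.61 in 1xBorCTCF, -0.57 in intraTAD2, -0.70 in intraTAD3, -0.63 in i4CTCF and -0.55 in wild type. There 2xBorCTCF was the sharpest of the 6 maps, but with 200 kb windows intraTAD3 was sharper (-0.82 against -0.80). The difference of 2xBorCTCF from 1xBorCTCF of -0.13 (-0.21 to -0.043) had an interval that includes 0 with 50 kb windows, with 200 kb windows and after thinning. Over all 519 bin borders, 47 were less insulated (9.06%) and 55 more insulated (10.6%) in 2xBorCTCF with an interval that left out 0. These shares count differences of any size and do not show how often 0.19 or -0.13 was reached.

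**Figure D5:**
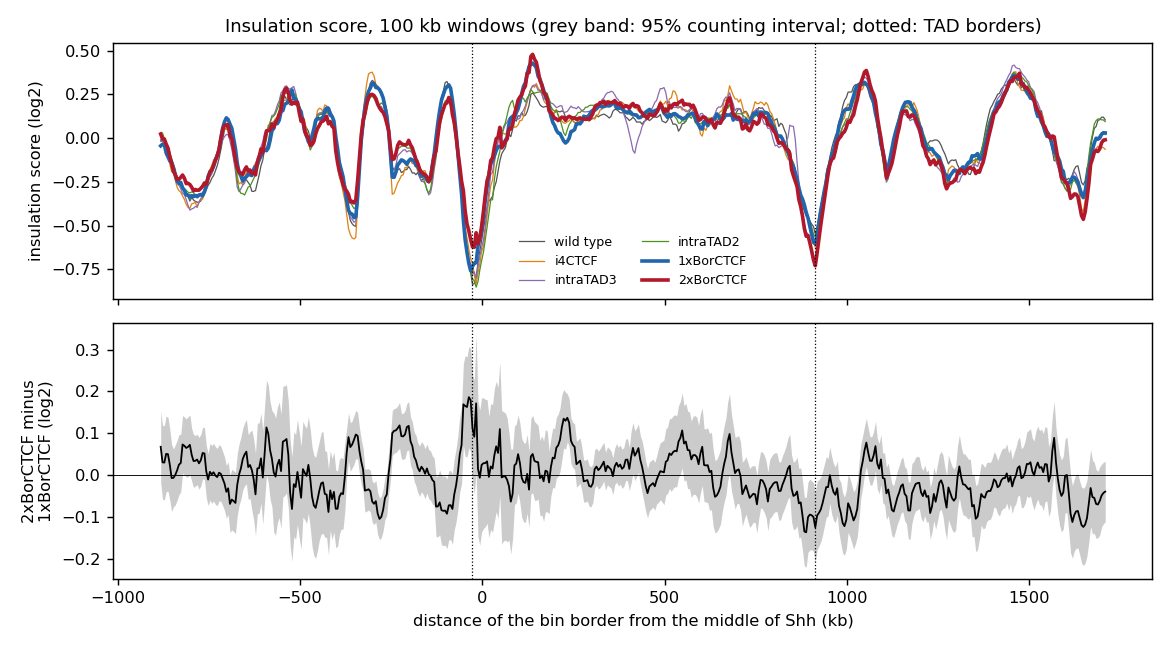
Upper panel: insulation score with 100 kb windows (y axis, log2, lower is a sharper border) by distance from Shh in kb (x axis) in 6 maps, 2xBorCTCF and 1xBorCTCF as thick lines. Lower panel: their difference with its 95% counting interval in grey; dotted lines are the TAD borders, where the differences were 0.11 next to Shh and -0.13 at Lmbr1.

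Runs of changed insulation lay along much of the region, some of them at En2 and Mnx1 and none over Shh. The differences reached -0.10 around En2, from 28,160,001 to 28,195,001. They reached -0.12 at 29,440,001 to 29,460,001, at Nom1 and towards Mnx1, and -0.11 across Mnx1, at 29,470,001 to 29,490,001. Runs away from these genes reached 0.097 at 28,095,001 to 28,125,001, -0.092 at 28,350,001 to 28,365,001 and -0.087 at 29,585,001 to 29,595,001. Another reached -0.12 at 30,100,001 to 30,120,001. In Cnpy1 and behind it, from 28,215,001 to 28,270,001, the score was higher by up to 0.12, at -0.021 in 2xBorCTCF and -0.14 in 1xBorCTCF. Around the bin at 28,685,001, from 28,675,001 to 28,715,001, the score was higher by up to 0.14. There 2xBorCTCF, at 0.12, lay with wild type (0.11), intraTAD3 (0.15) and i4CTCF (0.094). 1xBorCTCF was at -0.019 and intraTAD2 at 0.048.

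Stripes, the mean contacts of 1 bin with everything 20 to 500 kb to one side, seldom differed. Of 1003 bin sides, 2 were higher (0.199%) and 8 lower (0.798%). Both higher ones lay in the noncoding gene 9530036O11Rik beside Shh and faced into the TAD: 0.883 against 0.629 at 28,505,001, a ratio of 0.49 (0.22 to 0.76), and 0.992 against 0.756 at 28,585,001, a ratio of 0.39 (0.12 to 0.67). The bin at 28,440,001, next to the TAD border, was lower to its left, at 0.636 against 0.882, a ratio of -0.47 (-0.81 to -0.14). A bin at 27,970,001 and one at 30,070,001 in Tyms, the thymidylate synthase gene, were lower to their right, at -0.40 and -0.37. The bin at 29,315,001 in Lmbr1 was lower on both sides, at -0.43 and -0.51. Its unbalanced contacts at 10 kb or more hardly differed, 29.0 against 29.6 per 10000 contacts, and its within-bin contacts did. Their part in the stripe values was not tested.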

How the data were processed

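Capture Hi-C of limb buds was analysed for 2 homozygous genotypes with 1 library each, with the other 4 maps as levels. Per the labels' protocols, fixed chromatin was cut with DpnII, religated, sonicated and enriched with custom SureSelect probes. The submitters' processing notes name Bowtie2 2.2.6, mm9 and mm10 without a role. Per the file names, a mapping quality of 30 and Knight-Ruiz balancing were used. What the authors deposited is a balanced signal, 1 value a pair of 5 kb bins. The wild-type map, 1 column of values, belongs to no sample.

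Whole contacts and bin factors were recovered from the values (tolerance 0.01); 99.98% of 2xBorCTCF values and 100% of 1xBorCTCF values came out whole, and 27 pairs of 1 excluded bin were not recovered. Bins with under 25% of the median partners in either map (7 of 558) and pairs below 10 kb were left out. Intervals are weighted Poisson 95% intervals of the log2 ratio with bin factors held fixed. Tile pairs needed 10 contacts in each map. Genes come from RefSeq (GRCm38.p6). The genotypes, 13 listed genes and windows were chosen with earlier results of these data known. The rings, same-size windows and contacts per bin, and 2 of the alternatives, were added after values had been seen. Named were the 13 listed genes, the 5 strongest tile pairs in each direction within 1000 kb with 50 contacts in each map, and the 3 most extreme stripes to each side; predicted genes with Gm numbers are not named. Scripts were tested on simulated data. Python 3.11.15, numpy 2.4.6, pandas 2.3.3 and scipy 1.17.1 were used.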

Additional observations from a re-analysis of the deposited data

Results flagged for a closer look

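Contacts within a single 5 kb bin enter none of the comparisons. In 2 bins, 1 of the compared maps held at least 500 such contacts and more than 2 times the share of each of the other 4 maps. Within-bin contacts also differed between the compared maps in bins that did not meet this rule. At 28,685,001 they were 7.07 per 10000 contacts in 2xBorCTCF and 12.8 in 1xBorCTCF, with 12.98 in intraTAD2. In the Shh bins at 28,455,001 and 28,460,001 the log2 ratios were -1.07 and -1.38.

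At 29,315,001 in Lmbr1, the 2xBorCTCF library held 21.6 within-bin contacts per 10000 contacts of the map, from 2421 contacts. The other maps had 1.38 in 1xBorCTCF, 0.632 in intraTAD2, 1.249 in i4CTCF and 1.92 in wild type, and intraTAD3 had 0 contacts. The contacts of the same bin at 10 kb or more were 29.0 per 10000 in 2xBorCTCF, 29.6 in 1xBorCTCF, 29.4 in intraTAD2, 27.4 in i4CTCF, 42.7 in wild type and 2.44 in intraTAD3.

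At 28,630,001, inside the TAD, the 1xBorCTCF library held 4.09 within-bin contacts per 10000, from 808 contacts. The other maps had 2.45 in 2xBorCTCF, 1.52 in intraTAD2, 2.03 in intraTAD3, 1.91 in i4CTCF and 1.38 in wild type. At 10 kb or more this bin had 16.9 per 10000 in 2xBorCTCF and 16.8 in 1xBorCTCF.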

How the results depend on the processing

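No paired analysis was possible because each genotype had 1 library, and for the same reason no replicate could be left out. The deficits of En2 with Shh (-1.02 to -0.50), Shh with Mnx1 (-0.87 to -0.52) and En2 with Mnx1 (-0.97 to -0.57) kept direction and call under all 7 alternatives run. Of 335 values under alternatives, 269 were labelled as the same. For counts this meant staying within 1.5 times the count. A ratio whose interval left out 0 had to keep its direction and an interval without 0. A ratio whose interval included 0 had to keep such an interval and move no further than that interval reached to either side. Its direction could change, as for Shh with Nom1 (-0.24 to 0.049). Without bin factors, Shh with Lmbr1 reversed to -0.11, Shh with Rnf32 to -0.041 and the Shh stretch with the Lmbr1 stretch to -0.00020; the TAD with the Mnx1-side flank became -0.030 and the inside of that flank -0.028; Shh tiles became 0 higher and 17 lower, and bin sides 4 higher and 27 lower. With map-total scaling, the TAD with the En2-side flank reversed to -0.057 and those stretches to -0.021; the TAD with the Mnx1-side flank became -0.094 and the insides of the En2-side and Mnx1-side flanks 0.033 and 0.029; tile pairs became 49 higher and 249 lower, gene pairs 0 higher, Shh tiles 4 higher and bin sides 2 lower. Thinning 1xBorCTCF to the depth of 2xBorCTCF gave 1 higher gene pair, 6 higher bin sides, 998 higher and 893 lower 5 kb pairs and -0.081 at the Lmbr1 border. Wider gene windows of 3 bins gave 0 higher gene pairs and 4 higher Shh tiles. Tiles of 15 kb gave 363 higher and 306 lower pairs, tiles of 90 kb 5 and 7, and a 1.5-fold threshold 49 and 78. Moving the TAD borders 25 kb inwards gave -0.024 for the TAD with the Mnx1-side flank. Leaving out bins under 50% of the median partners gave 0.15 at the border next to Shh, and 200 kb windows gave -0.017 there. At the Lmbr1 border 50 kb windows gave -0.11 and 200 kb windows -0.051. Stripes of 20 to 250 kb gave 4 higher, and at least 10 contacts in both maps left 488 higher and 53 lower 5 kb pairs. Apart from what the settings themselves change (tiles, thresholds, contacts), the cause was not tested. The 2xBorCTCF depth limits the gene pairs beyond 1 Mb, some of which rest on under 50 contacts.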
